A study of Arabidopsis thaliana with 9 samples.

Results

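Transcript levels in an Arabidopsis thaliana constans mutant were compared with those in wild type on Affymetrix ATH1 arrays, which measure each transcript with a probe set of short oligonucleotides. The comparison used 6 of the 9 arrays of the series, the 3 of the constans mutant and the 3 of wild type, chosen by their titles and genotype labels. The other 3 arrays, of a HAP5 triple mutant, entered the fit to estimate the spread between arrays. They also counted in setting the lowest signal used and in choosing which probe sets were tested. The constans mutant was a single line given in the labels as co-SAIL, with no genetic background, and the wild type was Col-1, so the mutation and any difference in background cannot be told apart. Plants of both genotypes were kept for 4 days at 4 °C, then grown on soil treated with the pesticide Marathon, with Peter's fertiliser, at 22 °C in days of 16 h of light and 8 h of darkness. All tissue above the ground was taken at 10 days of age, 14 h after the lights came on.

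CONSTANS (CO) is a zinc-finger protein with a CCT domain that promotes flowering in long days. Its protein is stable in the light of late afternoon, when it activates the florigen gene FT in the companion cells of the leaf phloem, together with NF-Y proteins that bind CCAAT boxes. FT protein then moves to the shoot apex, where it switches on SOC1 and the genes that give the meristem its floral identity. Samples collected late in a long day, as here, are from the part of the day in which CO protein acts in wild-type leaves.

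The deposited values are MAS5 signals, intensities on a linear scale that the authors set to a common trimmed mean of every array. Changes are differences of mean log2 signal, constans mutant minus wild type, given with the standard error from limma, and folds are taken from the same log2 means. Every adjusted p is from limma with Benjamini-Hochberg adjustment over all 14173 probe sets tested, and a gene is said to have risen or fallen only where it was under 0.05. Each group holds 3 arrays, and the labels do not say whether these came from separate plants, so p-values measure the spread between these arrays, which may be technical. Any pair of these 6 arrays correlated, over probe sets, at 0.961 to 0.983 (probe sets are no replicates). They differed in the 25S ribosomal RNA control, which read 56.5, 1152 and 1079 in constans 1, 2 and 3, against 22.6, 108 and 418 in wild type 1, 2 and 3. Constans 2 and 3 therefore stood apart from the other arrays in this control, and constans 1 lay within the wild-type range. The ratio of the 3′ to the 5′ actin probe set, a measure of RNA quality, was 4.59, 4.79 and 4.11 in the constans mutant, against 5.09, 5.04 and 3.16 in wild type. Neither CO itself nor FT, SOC1, TSF, FUL, AP1 or FLC had a probe set named in the annotation used here, so the mutated transcript was not identified in any array.

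Across the array, 198 of 14173 probe sets passed, which is 1.4%, with 111 higher (0.783%) and 87 lower (0.614%) in the constans mutant. The 3 constans arrays lay beyond the 3 wild-type arrays in all 198 and in 2034 probe sets, or 14.4%, of all those tested. Before adjustment, 1600 (11.3%) had p under 0.05, with 869 higher and 731 lower. Genes that rose had a median change of 0.83 on the log2 scale, within 0.41 to 4.32, and those that fell had a median of -0.91, within -0.42 to -3.46. In wild type, the probe sets that fell had a median signal of 180, against 89.4 for those that rose and 82.3 for all tested. Wild type is by definition the higher genotype of the former and the lower of the latter, so these medians do not rank them by brightness. In 6 of the 111 and 3 of the 87, the genotype with the lower signal lay under the filter on dim probe sets. A probe set was tested if any of the 3 genotypes, the triple mutant included, reached that filter. Some of these were therefore tested only through the genotype with the higher signal, so that a difference was needed for the test. A change of at least 2-fold was found in 30 of those that rose and in 33 of those that fell. A single gene name was available for 85 of the 198, of which 48 rose and 37 fell, or 1.11% of the 7691 tested probe sets with one name. The functions below were assigned to these 85 genes after their calls were known, so the counts by function are descriptions. Because whole shoots were measured, fewer cells of a type and less RNA per cell cannot be told apart.

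**Figure D1:**
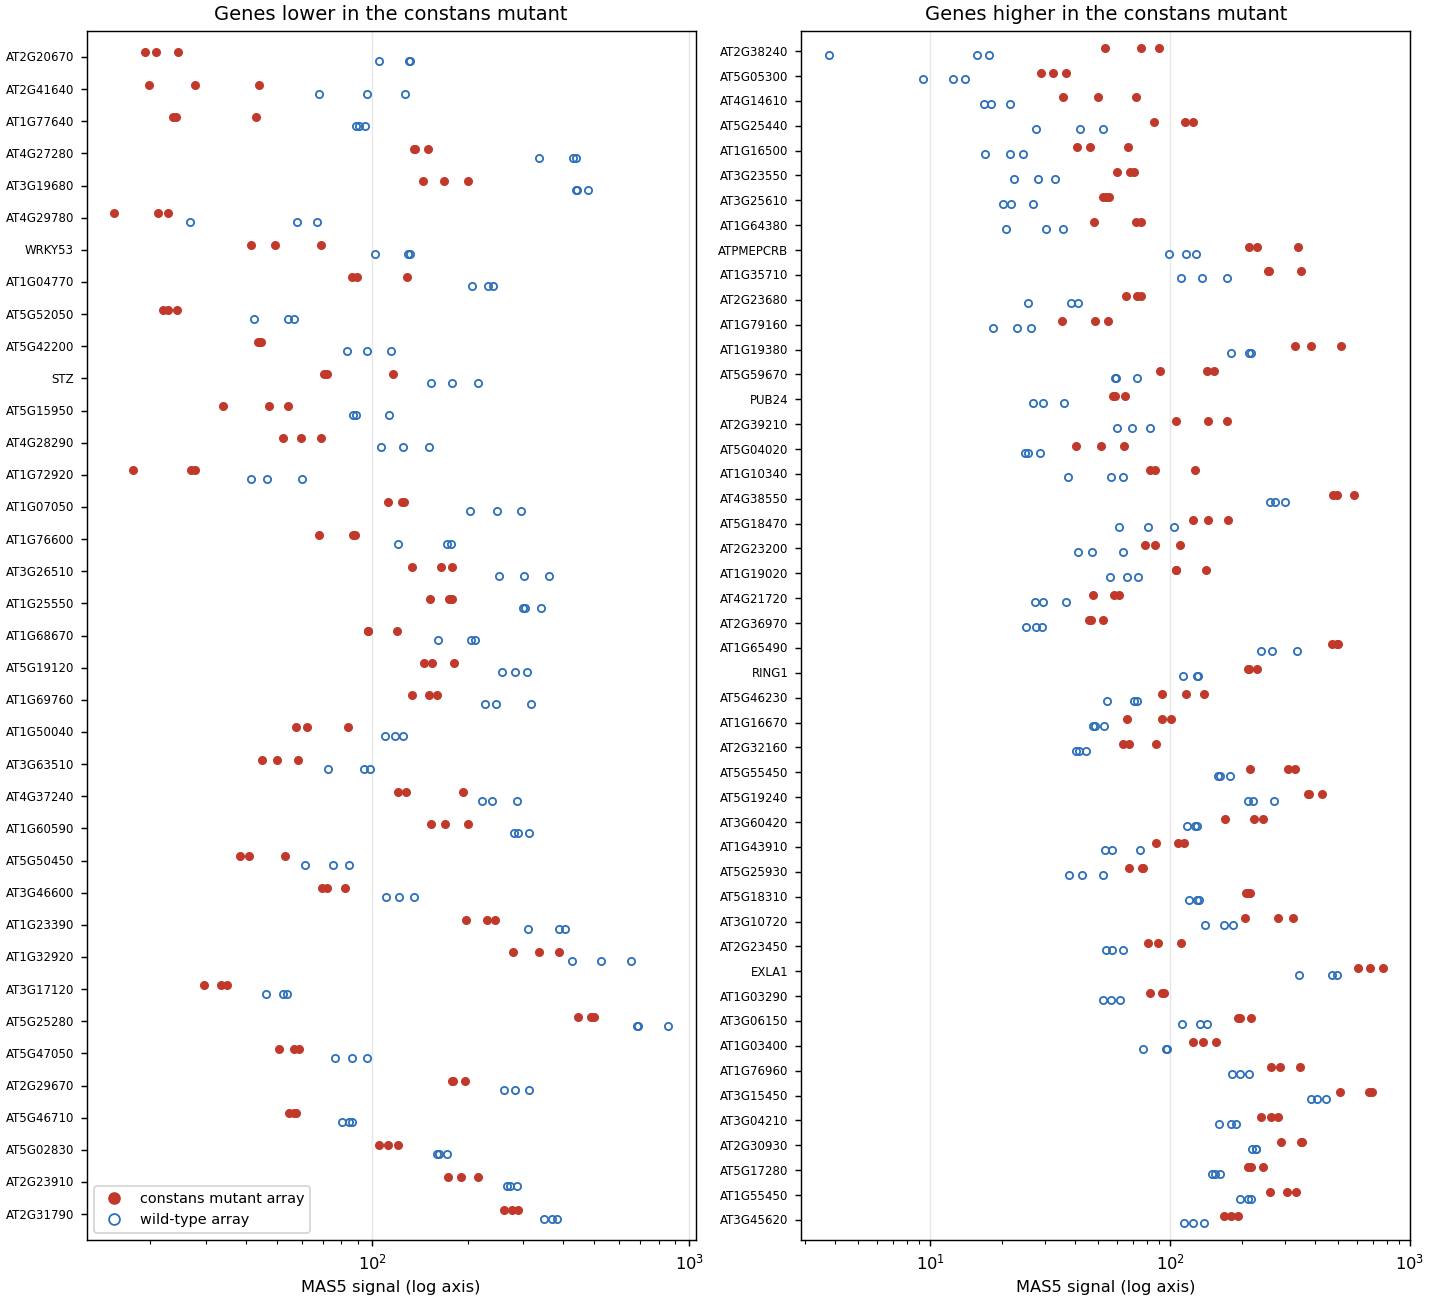
MAS5 signal on a log axis of the 37 named genes that fell (left) and the 48 that rose (right) in the constans mutant, 1 row per gene, with filled circles for the 3 constans arrays and open circles for the 3 wild-type arrays. The 2 groups do not overlap in any row, and AT2G20670 is 5.7-fold lower. The wild-type signals of AT2G38240 (7.06-fold higher) are dim, at 17.6, 3.78 and 15.6.

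AT4G27280, an EF-hand protein that binds calcium, read 137, 136 and 150 in the constans mutant, against 336, 429 and 440 in wild type. It fell by 1.5 ± 0.11 on the log2 scale, or 2.83-fold (adjusted p = 1.32e-05). The constans arrays lay within a narrow range, far below all wild-type arrays. STZ, a zinc-finger repressor induced by salt, drought and cold, read 116, 70.4 and 72.3 in the constans mutant, against 179, 215 and 153 in wild type, a change of -1.11 ± 0.21 (0.0153). AT4G29780, a nuclease-like protein, read 22.8, 15.4 and 21.1 in the constans mutant, against 26.6, 67.2 and 57.8 in wild type, a change of -1.27 ± 0.28 (0.0403). Here wild type 1 was close to the highest constans array, and the call was lost in 7 of the 9 fits that left out 1 array. AT1G32920, a protein of unknown function, was 1.6-fold lower (0.0403) and AT1G76600, also undescribed, was 1.91-fold lower (0.00566). The calmodulin-like genes CML23, CML30, CML38, CML41 and CML42, which share the EF-hand calcium-binding fold with AT4G27280, gave changes from -0.93 to 0.61, and none of these 5 passed.

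Transcription factor genes made up 8 of the 37 named genes that fell and 1 of the 48 that rose, but their share among all tested named genes was not counted, so nothing is read from these counts. AT1G77640, the AP2/ERF factor ERF013, read 43.1, 24.1 and 23.6 in the constans mutant, against 94.8, 88.9 and 91.1 in wild type, a change of -1.66 ± 0.22 (3.15-fold lower, adjusted p = 0.00173). WRKY53, a regulator of leaf senescence and defence, read 68.9, 49.3 and 41.4 in the constans mutant, against 132, 130 and 102 in wild type, which is 2.31-fold lower (0.00274). In both genes, as in STZ, the constans array nearest to wild type was constans 1. This differed between genes that fell, since it was constans 2 in AT1G60590 and constans 3 in AT4G28290. AT1G07050, a factor called FITNESS that carries a CCT domain, the domain shared with CO itself, read 124, 126 and 112 in the constans mutant, against 204, 295 and 248 in wild type. Its change was -1.03 ± 0.15 (2.05-fold lower, 0.0023), with no constans array near a wild-type one. AT3G46600, a GRAS-family factor, was 1.65-fold lower (0.00788), and AT5G46710, a PLATZ-type zinc-binding protein, was 1.49-fold lower (0.0403). AT1G64380, the AP2/ERF factor ERF061, was the one that rose, with 48, 72 and 75.9 in the constans mutant, against 35.9, 20.6 and 30.4 in wild type (2.27-fold, 0.0229). Of the 8 that fell, 5 passed in each of the 9 fits that left out 1 array and 6 passed with the 25S signal as a covariate, where STZ (0.0504) and AT5G46710 (0.103) did not. ERF061 (AT1G64380) did not pass in that fit either (0.0813).

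A pair of nitrate-responsive repressors of the NIGT1/HHO family, which limit nitrate uptake and link it to phosphate supply, fell together. AT1G25550 (HHO3) read 175, 178 and 152 in the constans mutant, against 304, 340 and 299 in wild type, a change of -0.9 ± 0.11 (1.86-fold lower, adjusted p = 0.000803). AT1G68670 (HHO2) read 120, 97.3 and 97 in the constans mutant, against 211, 205 and 161 in wild type, a change of -0.87 ± 0.13 (1.83-fold lower, 0.00324). Their relative AT1G49560 (HHO6) had lower signals in the constans mutant on every array, 20.7, 27.1 and 20.3 against 40.2, 30.8 and 33.3 in wild type, but its change of -0.62 ± 0.23 did not pass (0.289). AT4G37180 (HHO5) had a change of -0.01 ± 0.32 (0.994), so that 2 of the 4 family members tested fell. HHO3 passed in every alternative fit that was run, and HHO2 missed the threshold when dim probe sets were kept (0.0531) and when the 3 arrays of high 25S signal were left out (0.05).

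Among metabolic genes that fell, AT1G04770 is SDI2, which is induced by sulfur deficiency and restrains glucosinolate synthesis. It read 129, 86.3 and 89.9 in the constans mutant, against 232, 241 and 207 in wild type, a change of -1.18 ± 0.14 (2.27-fold lower, adjusted p = 0.000746). AT2G31790 encodes UGT74C1, a glucosyltransferase of the synthesis of glucosinolates, the sulfur-rich defence compounds of the cabbage family, and fell by 0.42 ± 0.09 (1.33-fold, 0.0415), the smallest fall among the named genes. In the sulfur and glucosinolate list of 8 tested genes, which does not hold AT2G31790, SDI2 was the single member that passed. The mean of 6 lay below that of wild type, and the median change was -0.4. The related glucosyltransferase UGT74B1 read 190, 196 and 197 in the constans mutant, against 247, 250 and 329 in wild type, a change of -0.49 ± 0.12 that did not pass (0.0585). BCAT4, which starts the chain elongation of methionine for glucosinolates, had -0.42 ± 0.11 (0.0879), and the ATP sulfurylase gene APS3 had -0.47 ± 0.12 (0.0971). AT2G31790 lost its call in all 9 fits that left out an array and with the 25S signal as a covariate (0.0538), whereas SDI2 passed in every alternative fit.

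AT5G15950, the S-adenosylmethionine decarboxylase gene SAMDC2 of polyamine synthesis, read 54.5, 33.8 and 47.4 in the constans mutant, against 86.8, 88.9 and 113 in wild type, a change of -1.1 ± 0.17 (2.15-fold lower, adjusted p = 0.0036). Its paralogs SAMDC1, far brighter at 2016, 2224 and 2364 in the constans mutant against 2189, 2210 and 2347 in wild type, and SAMDC3 gave changes of -0.03 ± 0.1 and 0.28 ± 0.24 and did not pass. SAMDC2 also lies near CO on chromosome 5, as the 13th gene after it in gene order. Of the 25 genes on each side of CO, 19 had a tested probe set with a single name, and SAMDC2 was the 1 that passed. Among all tested probe sets with one name 1.11% passed, and nothing is read from 1 call among so few neighbours. AT5G15780, 7 genes before CO, had a difference of -1.06 that did not pass (0.5).

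The remaining falls were of mixed function. AT2G20670, a DUF506 protein, had the largest fall among named genes, with 24.5, 19.2 and 20.9 in the constans mutant, against 132, 105 and 131 in wild type, a change of -2.51 ± 0.25 (adjusted p = 0.00015). AT3G19680 and AT1G50040, 2 members of the plant DUF1005 family, were 2.68-fold and 1.74-fold lower, while the third tested member, AT1G10020, had a change of -0.02 ± 0.12 (0.978). AT3G19680 read 201, 145 and 168 in the constans mutant, against 443, 440 and 480 in wild type (4.26e-05). Ubiquitin ligase components were AT5G42200, a RING-type protein at 44.8, 44.4 and 43.6 in the constans mutant against 96.6, 115 and 83.1 in wild type (2.2-fold lower, 0.00147), and AT1G23390, a Kelch-domain F-box protein that targets chalcone synthase for degradation (1.64-fold lower, 0.00919). At the cell wall, AT2G41640, a glycosyltransferase-type protein, was 3.26-fold lower (0.00314) and AT1G60590, a pectin lyase-like protein, 1.7-fold lower (0.00371). AT2G41640 read 44.1, 19.8 and 27.7 in the constans mutant, against 68.1, 127 and 96.5 in wild type, with constans 1 again the nearest to wild type. AT5G52050, the MATE transporter DTX50 that exports abscisic acid, read 22, 22.7 and 24.2 in the constans mutant, against 42.5, 56.6 and 54.4 in wild type (2.21-fold lower, 0.0036). AT1G72920, a TIR-domain protein of the kind found in immune receptors, read 26.9, 17.6 and 27.6 in the constans mutant, against 46.6, 60.2 and 41.4 in wild type (2.07-fold lower, 0.0224), and lost its call with the 25S signal as a covariate (0.0701). AT4G28290, undescribed, read 52.4, 59.9 and 68.8 in the constans mutant, against 125, 151 and 107 in wild type (2.1-fold lower, 0.0061), and AT5G19120, an aspartyl protease-like protein, 1.76-fold lower (0.00199).

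Among the genes that rose, protein kinases accounted for 7 of the 48, with none among the 37 that fell, and here too the share among all tested named genes was not counted. AT5G25440, a protein kinase, read 115, 85.8 and 124 in the constans mutant, against 42, 27.5 and 52.6 in wild type, a rise of 1.44 ± 0.23 (2.71-fold, adjusted p = 0.00566). AT1G35710, a leucine-rich repeat kinase called MIK2-LIKE, read 258, 257 and 350 in the constans mutant, against 173, 136 and 111 in wild type, a rise of 1.05 ± 0.17 (2.07-fold, 0.00581). Its closest relative AT4G08850, MIK2, which senses peptides of fungi and of the plant itself, read 335, 304 and 330 in the constans mutant, against 249, 210 and 206 in wild type. That difference of 0.55 ± 0.13 did not pass (0.0515), although the groups did not overlap. AT5G59670, another leucine-rich repeat kinase, rose 1.98-fold (0.0179), AT2G23200, of the family of the cell wall sensors FER and THE1, 1.82-fold (0.0235), and AT5G25930, the receptor kinase HSL3, 1.67-fold (0.0307). AT1G16670, the cold-responsive kinase CRPK1, rose 1.71-fold (0.0278) and AT2G23450, the wall-associated kinase-like gene WAKL14, 1.59-fold (0.043). FER and THE1 themselves had differences of 0.25 ± 0.1 and 0.32 ± 0.12 and did not pass (0.337 and 0.286). With the 25S signal as a covariate 6 of the 7 passed, all but WAKL14 (0.0864). AT5G25440 and AT1G35710 were the 2 that passed in every fit that left out 1 array. Of the 7, 2 passed without constans 1, constans 3 or wild type 2, 3 without wild type 3, and 4 without wild type 1 or the second triple-mutant array. Without the 3 arrays of high 25S signal AT5G59670 was the 1 that passed (0.045).

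Genes with a known part in immunity, or annotated as related to such genes, were found on both sides. AT1G72920 and WRKY53, described above, fell, while those that follow rose. RING1, a membrane-bound ubiquitin ligase that promotes cell death in defence, read 230, 211 and 214 in the constans mutant, against 131, 113 and 130 in wild type, a rise of 0.81 ± 0.11 (adjusted p = 0.00199). PUB24, a U-box ubiquitin ligase that restrains immune signalling, read 58.7, 57.6 and 65 in the constans mutant, against 36.1, 29.4 and 26.8 in wild type, a rise of 0.98 ± 0.18 (0.013). PUB22 and PUB23, which act redundantly with PUB24, gave -0.05 ± 0.3 and -0.34 ± 0.18, neither of which passed. AT3G04210, the TIR-NBS protein TN13, read 282, 240 and 263 in the constans mutant, against 160, 179 and 188 in wild type (1.49-fold, 0.0224). AT4G14610, annotated as a pseudogene of a nucleotide-binding resistance protein, read 35.7, 71.9 and 50 in the constans mutant, against 21.4, 16.8 and 17.9 in wild type (2.72-fold, 0.0179), with constans 1 nearest to wild type. AT5G04020, the calmodulin-binding protein PICBP, rose 1.94-fold (0.0307) but missed the threshold with the 25S signal as a covariate (0.119). AT5G05300, the IDA-like peptide gene IDL6, was dim, with 32.6, 36.9 and 29 in the constans mutant, against 12.5, 9.34 and 14 in wild type (2.77-fold, 0.0118). AT4G14610 and IDL6 were tested only through their constans signals, and both lost their call with dim probe sets kept (0.141 and 0.0627). In the defence list RING1 and PUB24 were the 2 of 9 tested members that passed, and the mean of 7 of the 9 was above that of wild type, with a list median of 0.42. The chitinase gene CHI (AT2G43570) read 50.2, 55.6 and 105 in the constans mutant, against 30.1, 23 and 18.9 in wild type, a difference of 1.5 ± 0.37 that did not pass (0.0707).

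Genes of the cell wall and surface rose in 4 cases. ATPMEPCRB (AT4G02330), a pectin methylesterase, an enzyme that modifies wall pectin, read 341, 230 and 213 in the constans mutant, against 99, 128 and 116 in wild type, a rise of 1.17 ± 0.16 (2.25-fold, adjusted p = 0.00171). It also passed without the 3 arrays of high 25S signal (1.6 on the log2 scale, 0.00492). AT3G10720, a second pectin methylesterase, rose 1.64-fold (0.0307) with 325, 282 and 205 in the constans mutant, against 167, 182 and 140 in wild type. AT5G19240, a GPI-anchored surface protein, read 430, 380 and 375 in the constans mutant, against 221, 270 and 212 in wild type (1.69-fold, 0.00307). EXLA1, an expansin-like protein, read 768, 681 and 608 in the constans mutant, against 345, 471 and 494 in wild type (1.58-fold, 0.0402). Its neighbour in the family, EXLA2, had a difference of 0.33 ± 0.16 that did not pass (0.464), and EXLA1 itself lost its call once the 25S signal was a covariate (0.0818). Of 13 pectin and cellulose genes tested in the list, ATPMEPCRB was the single one that passed, with a list median of 0.13. AT3G10720 and the pectin lyase-like AT1G60590, which also passed, are not in that list.

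Genes of 3 membrane transporters rose. AT3G23550, the MATE transporter DTX18 that exports antimicrobial amides, read 68.1, 60.1 and 71 in the constans mutant, against 22.3, 33.2 and 28 in wild type, a rise of 1.27 ± 0.2 (2.41-fold, adjusted p = 0.00465). AT3G25610, the lipid flippase ALA10, read 55.4, 54.1 and 52.6 in the constans mutant, against 26.9, 20.1 and 21.7 in wild type (2.37-fold, 0.00634). AT2G39210, of the major facilitator family, rose 1.97-fold (0.0184). All 3 passed with the 25S signal as a covariate, and none passed without the 3 arrays of high 25S signal.

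AT2G38240, the jasmonate oxidase JOX4 that inactivates jasmonic acid, had the largest fitted rise among the named genes, but was dim in wild type. It read 53.5, 75.8 and 90 in the constans mutant, against 17.6, 3.78 and 15.6 in wild type, a rise of 2.82 ± 0.46 (adjusted p = 0.006). Its wild-type mean lay under the filter, so the size of the rise is not well defined, and without wild type 2, its lowest array, it was 2.11 on the log2 scale. The call held in all 9 fits that left out 1 array, but was lost when dim probe sets were kept (0.141) and when the 3 arrays of high 25S signal were left out (0.202). JRG21 (JOX3) read 21.9, 7.81 and 97.8 in the constans mutant, against 1.68, 18.9 and 8.1 in wild type, so its groups overlapped and its difference of 2.01 ± 0.85 did not pass (0.377). AT5G05600 (JOX2) had 0.63 ± 0.25 (0.319), and JOX1 was too dim to be tested. JMT, which makes the methyl ester of jasmonic acid, read 34.4, 24.8 and 22.2 in the constans mutant, against 52.8, 47.6 and 41.5 in wild type, a difference of -0.82 ± 0.21 that did not pass (0.0734). JOX4 was the 1 of 11 tested genes of the jasmonate list that passed, and the median of that list was 0.07.

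The other rises included AT2G23680, a membrane protein of the cold-regulated COR413 family, with 73.1, 75.7 and 65.3 in the constans mutant, against 41.3, 38.8 and 25.6 in wild type (2.07-fold, adjusted p = 0.014). The cold and dehydration list, to which it was not assigned, had 10 tested members, of which STZ fell and none rose. Its median was 0.2, and COR15A, a chloroplast protein that protects membranes in the cold, read 286, 356 and 551 in the constans mutant, against 148, 238 and 247 in wild type. That difference of 0.89 ± 0.22 did not pass (0.0618). AT2G36970, the glycosyltransferase UGT86A1, rose 1.78-fold (0.0391) and AT3G15450, a gene of sugar starvation, 1.51-fold (0.025), and neither passed with the 25S signal as a covariate (0.0541 and 0.0716). AT4G38550, a phospholipase-like protein of the PEARLI family, read 496, 476 and 583 in the constans mutant, against 300, 273 and 261 in wild type (1.86-fold, 0.00101), the smallest adjusted p among named genes that rose. AT5G18310, undescribed, read 212, 215 and 208 in the constans mutant, against 120, 132 and 130 in wild type (1.66-fold, 0.00203). AT1G19380, a DUF1195 protein, read 515, 332 and 385 in the constans mutant, against 214, 218 and 179 in wild type (1.99-fold, 0.00487), and constans 1 was its highest array. AT1G16500, undescribed, read 40.9, 66.6 and 46.3 in the constans mutant, against 21.4, 16.9 and 24.4 in wild type (2.43-fold, 0.0307), and AT1G79160, also undescribed, read 48.8, 55.3 and 35.5 in the constans mutant, against 23.1, 18.3 and 26.4 in wild type (2.05-fold, 0.0349).

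**Figure D2:**
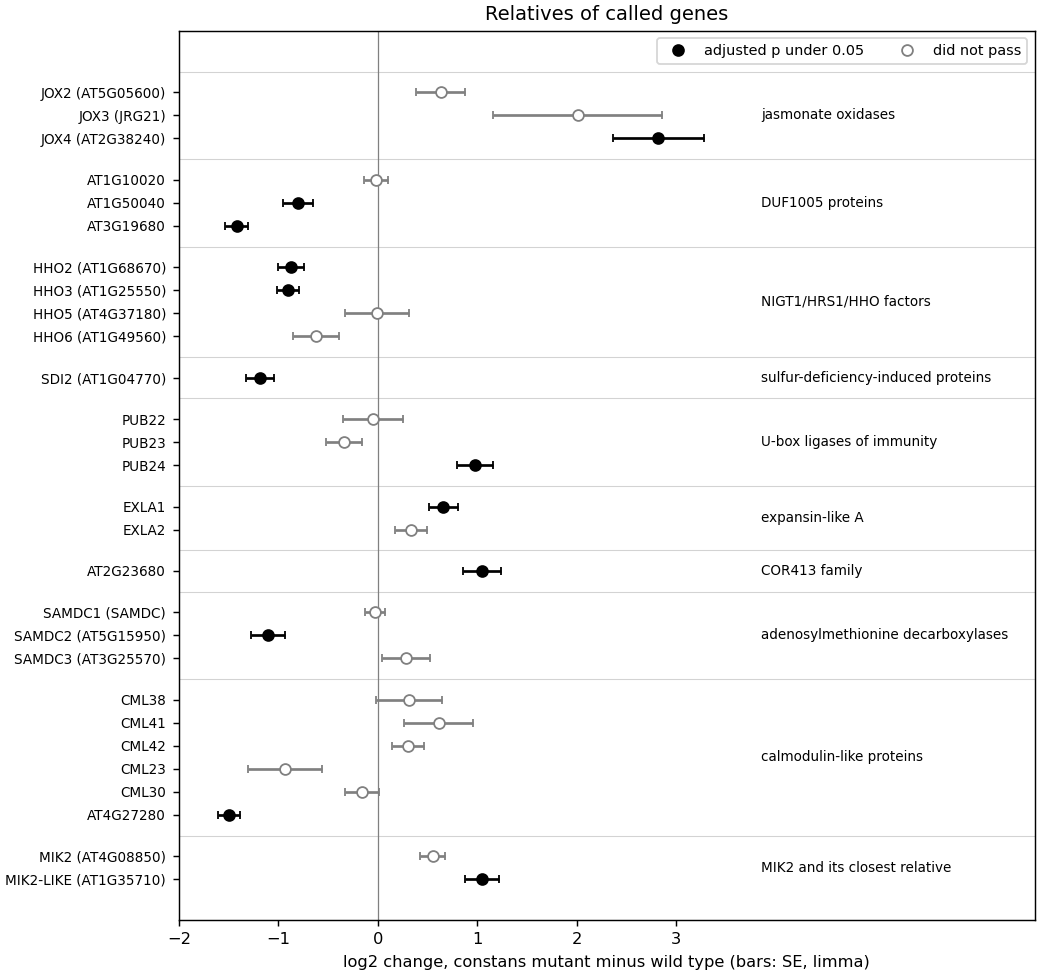
Log2 change with its standard error, constans mutant minus wild type, of the tested members of 10 gene families that hold a called gene, with filled circles for adjusted p under 0.05 and open circles for those that did not pass. In most families a single member passed, and both HHO2 and HHO3 (-0.87 and -0.9) and 2 of 3 DUF1005 genes (-1.42 and -0.8) fell.

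Set out by family, some tested members passed and others did not, which does not show that the latter were unchanged. The COR413 and the sulfur-deficiency-induced families had 1 tested member each. The 10 families of called genes, put together after the calls were known, held from 1 to 6 tested members. A second member passed in the NIGT1/HHO and DUF1005 families alone. In the jasmonate oxidases, the NIGT1/HHO factors and the pair of MIK2 kinases the members that did not pass had changes in the direction of the called ones or near 0, with HHO5 at -0.01. In the decarboxylases and the calmodulin-like proteins they lay on both sides of 0, and in the U-box ligases they lay below 0 where PUB24 rose. A difference between members was not tested.

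Beyond the called genes, 39 lists of gene functions held 298 tested genes, of which 17 passed, in 13 of the lists, beside 1.11% of all tested probe sets with one name. All lists were drawn up with earlier results of these data known, and some hold called genes without their relatives that did not pass. AT2G38240 (JOX4) is in the jasmonate list without JOX2 and JOX3, and AT1G35710 is in the receptor kinase list without MIK2. The share that passed therefore cannot be compared with the 1.11%, and these counts are descriptions. The list of calcium and touch responses had 8 of 13 members lower, but genes already known to have fallen were entered in it by name, and it is left out of the plot of lists. The 9 tested genes of light harvesting and nuclear photosynthesis had a median of 0.07 and none passed. None of 28 glycosyltransferase and glutathione transferase genes passed, with a median of 0.06, and none of 10 cytochrome P450 genes, with a median of 0.17. The same held for 6 iron genes (median -0.17), 5 auxin genes (0.09) and 8 genes of the cell cycle and histones (0.02). Of 17 genes of sugar and energy starvation AT2G20670 fell and none of the others passed (median 0.07). AT3G15450, which rose, is not in that list. Likewise, the glycosyltransferase genes AT2G36970 (UGT86A1), which rose, and AT2G31790 (UGT74C1), which fell, are not in the list of 28. The median change over all tested probe sets was 0.0.

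In the lists with no called gene, the members with the smallest p were the following. In light harvesting, LHCB4.3, an antenna protein of photosystem II, read 780, 919 and 814 in the constans mutant, against 686, 680 and 675 in wild type. Its groups did not overlap, yet the difference of 0.3 ± 0.09 did not pass (adjusted p = 0.184), and LHCB4.2 had 0.26 ± 0.1 (0.329). Of the glycosyltransferases, UGT87A2, which affects flowering time through FLC, read 142, 144 and 202 in the constans mutant, against 120, 105 and 120 in wild type, a difference of 0.49 ± 0.14 (0.138). The cytochrome P450 genes CYP71B23 and CYP71B36 had 0.64 ± 0.28 (0.402) and 0.53 ± 0.28 (0.518). GH3.17, which conjugates auxin to amino acids, had 0.57 ± 0.27 (0.447) and its relative WES1 0.32 ± 0.21 (0.646). BHLH101, a factor of the iron deficiency response, had -0.54 ± 0.35 (0.63) and the iron regulator PYE 0.25 ± 0.19 (0.699). DFR, an enzyme of anthocyanin synthesis, read 586, 825 and 796 in the constans mutant, against 527, 663 and 582 in wild type, so that the groups overlapped (0.31 ± 0.17, 0.555). The gibberellin receptor gene GID1B had 0.38 ± 0.29 (0.704). In other lists of this kind, the members named are the redox gene GRXC2 (0.18 ± 0.1, 0.557), the chaperonin gene Cpn60beta4 (-0.18 ± 0.11, 0.598), the mitotic kinase gene AUR2 (-0.19 ± 0.13, 0.675) and the fatty acid oxidation gene AIM1 (0.14 ± 0.11, 0.704). Lists with only 1 or 2 tested members gave the light-signalling factor gene HYH (-0.26 ± 0.19, 0.667), NAC014 (0.24 ± 0.14, 0.583), MYBC1 (-0.42 ± 0.37, 0.741), the ribosomal protein gene PGY1 (-0.07 ± 0.11, 0.884), the ethylene-signalling gene RTE1 (-0.14 ± 0.19, 0.862) and the cytokinin response regulator gene ARR15 (-0.02 ± 0.2, 0.982). None of these passed.

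**Figure D3:**
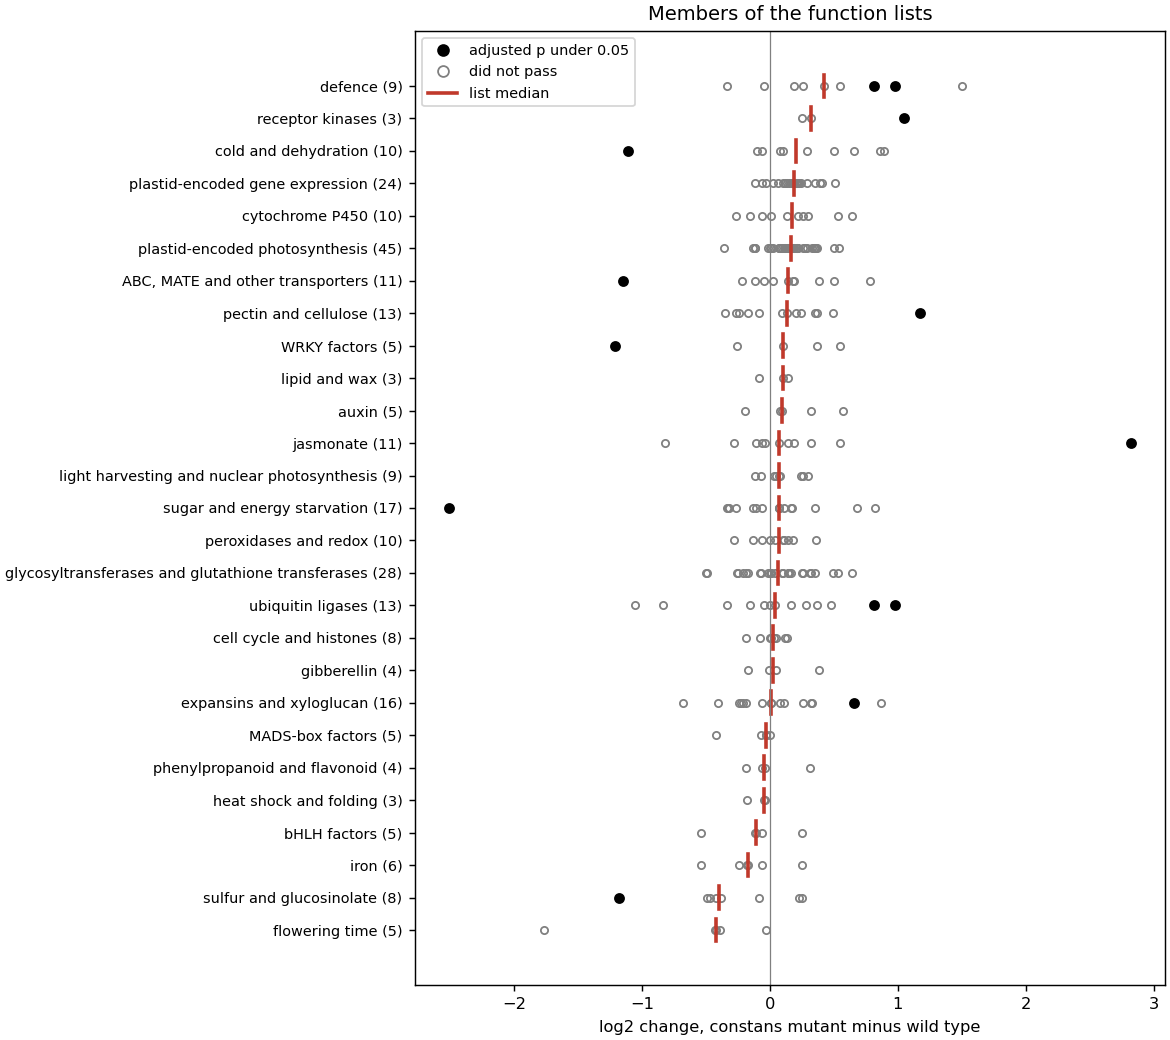
Log2 change, constans mutant minus wild type, of every tested member of the lists with at least 3 tested members (number in brackets), with the list medians as red bars, sorted by median. Filled circles mark members with adjusted p under 0.05, and most list medians lie close to 0, with the highest at 0.42 for defence and the lowest at -0.42 for flowering time. The list of calcium and touch responses is left out, and all lists were drawn up with earlier results of these data known.

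Of the flowering regulators, 5 had a tested probe set, and all 5 had a lower mean in the constans mutant, with none passing. Among all tested probe sets 49.6% averaged above wild type, so a lower mean was common. Nothing is read from the shared direction. FD and AGL19, also in the flowering list, were too dim to be tested. FD lay the other way without overlap, at 8.12, 9.1 and 10.4 in the constans mutant, against 3.33, 1.06 and 5.65 in wild type. AGL19 overlapped, at 9.55, 1.03 and 9.17 in the constans mutant, against 6.64, 5.26 and 6.18 in wild type. GI, the clock-associated protein that acts upstream of CO, read 20, 2.07 and 18.1 in the constans mutant, against 35.4, 31 and 27.2 in wild type. The groups did not overlap, but constans 2 was far below the other constans arrays, and the difference of -1.77 ± 0.61 did not pass (adjusted p = 0.245). The floral repressor SNZ read 30.1, 31.6 and 24.6 in the constans mutant, against 36.4, 39.7 and 36.4 in wild type (-0.39 ± 0.18, 0.438), also with no overlap. Another repressor of its family, SMZ, read 23.7, 44.5 and 29.7 in the constans mutant, against 47.7, 36.5 and 43.5 in wild type, and the MADS-box factor AGL18 read 21.2, 16.4 and 16.5 in the constans mutant, against 24.1, 25.6 and 22.5 in wild type. AGL24, a promoter of flowering, overlapped fully, with 35.5, 58.5 and 45.5 in the constans mutant, against 48.4, 43.6 and 48.1 in wild type. The single other clock gene with a name, AT5G52660, a MYB-like factor of the REVEILLE family, had a difference of -0.21 ± 0.18 (0.747).

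Since the 25S control averaged more in the constans mutant, the called genes were also read array by array. The probe sets that rose lay above the wild-type mean by a median of 0.89, 0.73 and 0.93 in constans 1, 2 and 3, on the log2 scale. Those that fell lay at -0.81, -0.95 and -0.96 in the same arrays. These probe sets were called because the 3 constans arrays differed from wild type together, so the place of constans 1 among them says nothing about the 25S signal. The 69 genes of the plastid genome, which were not chosen by this comparison, lay at -0.26, 0.6 and 0.12 in constans 1, 2 and 3, against -0.27, 0.11 and 0.14 in wild type 1, 2 and 3. In each genotype their level was lowest on the array with the lowest 25S signal. Of these 69, 45 encode photosynthesis proteins (median change 0.16) and 24 the plastid's own gene expression (median 0.19), and none passed. With the 25S signal as a covariate, 186 probe sets passed, 111 higher and 75 lower, with 144 of the 198 among them. Without the 3 arrays whose 25S signal was above 400, 37 passed, 18 higher and 19 lower, with 34 of the 198 among them. That fit held constans 1, wild type 1 and 2 and the triple mutant, and assumed that the lone constans array varied like the others. All 85 named genes kept their direction in both fits. Without the 3 arrays this was fixed beforehand, since constans 1 lay beyond every wild-type array in each called probe set. With the covariate, 34 of the 48 that rose and 25 of the 37 that fell passed. What part RNA quality or ribosomal RNA had in the changes was not tested beyond these values.

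**Figure D4:**
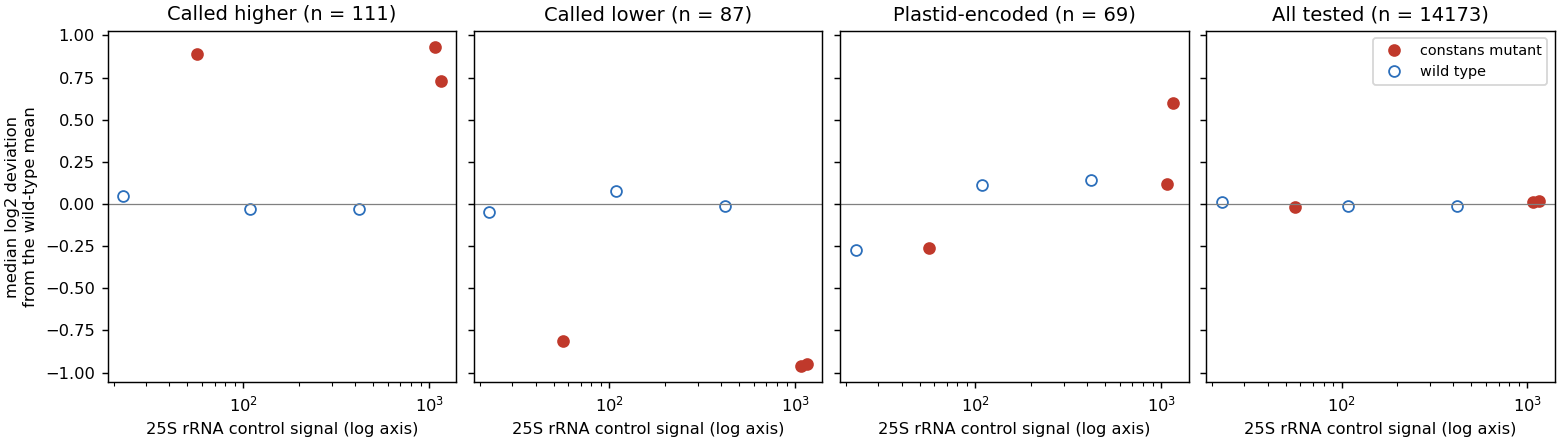
Median log2 deviation from the wild-type mean in each array against its 25S control signal on a log axis, for the 111 probe sets that rose, the 87 that fell, 69 plastid-encoded genes and all 14173 tested. Filled circles are constans arrays and open circles wild-type arrays. The called groups were chosen for the separation of the constans arrays from wild type, which fixes where those arrays lie. The plastid-encoded genes are lowest in the array with the lowest 25S signal of each genotype.

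Most of the called probe sets, 110 of 198, had no gene name in the annotation used, with 60 higher and 50 lower, and 3 more matched several genes. Probe set 248964_at read 54.3, 52.6 and 46.2 in the constans mutant, against 205, 272 and 223 in wild type, a change of -2.19 ± 0.13 with the smallest adjusted p of the comparison (1.02e-06). It passed in each of the 21 alternative fits in which it was tested. Probe set 246525_at was near absent from the constans mutant, with 1.52, 4.3 and the floor of 1.03, against 30.5, 23.6 and 12.4 in wild type (adjusted p = 0.0036). Probe set 252984_at read 18.3, 22.9 and 156 in the constans mutant, against the floor in wild type 1 and 2 and 7.77 in wild type 3 (0.0224), so its rise has no reliable size. It was tested only through its constans signals. Its call was lost with dim probe sets kept (0.21) and with the 25S signal as a covariate (0.0636). Probe set 258653_at was dim in both genotypes, with 6.4, 2 and 3.02 in the constans mutant, against 8.59, 19.8 and 19.1 in wild type (0.038). It lay under the filter in both, and was tested only through the triple mutant, which read 34.8, 37.9 and 32.6. Among the rises, 249940_at read 30.6, 42.2 and 30.3 in the constans mutant, against 7.29, 13.1 and 17.3 in wild type (1.52 ± 0.34, 0.0408). It was tested only through its constans signals, lost its call with dim probe sets kept (0.195) and passed in 2 of the 9 fits that left out 1 array. Probe set 246302_at read 33.8, 57.5 and 58.3 in the constans mutant, against 20.1, 16.5 and 17 in wild type (1.44 ± 0.24, 0.0072), and it too lost its call with dim probe sets kept (0.0683).

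The arrays of the HAP5 triple mutant, which were not part of this comparison, give another level to set beside the named genes. The same 3 constans arrays enter both contrasts, so the values are given side by side only. AT4G27280, for instance, averaged 141 in the constans mutant, 546 in the triple mutant and 402 in wild type, and AT1G35710 averaged 288 in the constans mutant, 121 in the triple mutant and 140 in wild type. The place of the triple mutant differed between genes. AT3G10720 averaged 271 in the constans mutant, 258 in the triple mutant and 163 in wild type.

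The labelled tissue was checked against markers. Of 29 genes that mark green tissue, 4 had a named probe set, RCA, LHCB4.1, LHCB4.2 and LHCB4.3, and their summed signal was 13206, 14560 and 11878 in the constans mutant, against 11998, 13680 and 11712 in wild type. Of 21 root markers, PYK10, EXPA7 and EXPA18 were named, with a summed signal of 257, 283 and 293 in the constans mutant, against 224, 202 and 225 in wild type. These groups did not overlap. The difference lay in PYK10, a beta-glucosidase of roots and seedlings (0.37 ± 0.11, adjusted p = 0.171), while the root-hair genes EXPA7 and EXPA18 were dim and not tested. The pollen markers with a name, 2 of 4, summed to 6.99, 12.9 and 2.06 in the constans mutant, against 2.06, 2.9 and 6.36 in wild type. No marker of floral organs or seeds had a named probe set, and none of the markers tested passed.

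**Figure D5:**
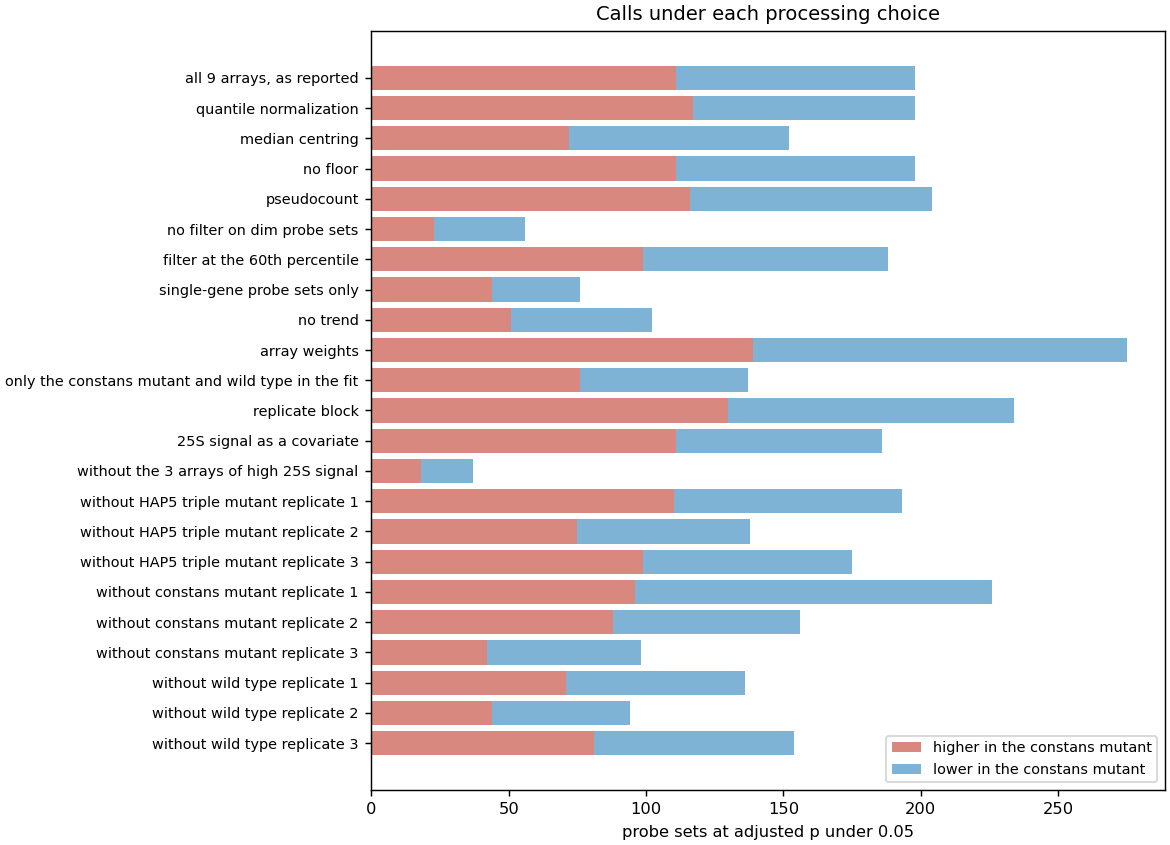
Number of probe sets with adjusted p under 0.05 under each processing choice, higher in the constans mutant in red and lower in blue. The count is 198 in the fit reported here and lies between 37, without the 3 arrays of high 25S signal, and 275, with array weights.

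Some calls hold more firmly than others. All 85 named genes kept their direction in every alternative fit in which they were tested, at most 22. In all 85 the constans arrays lay beyond the wild-type arrays. Fits that only left out arrays, or changed the filter or variance setting, therefore had to keep the direction, which is no sign of firmness. None of the 48 that rose and only 6 of the 37 that fell passed in every fit. Those 6 were AT4G27280, AT3G19680, AT1G04770 (SDI2), AT5G42200, AT1G25550 (HHO3) and AT1G60590. Over the 9 fits that left out 1 array, 12 of the genes that rose and 19 of those that fell passed each time. Leaving out constans 3 gave 98 called probe sets and leaving out wild type 2 gave 94. Genes that lost their call in every one of these 9 fits were AT3G45620 among those that rose and AT2G31790, AT3G17120 and AT5G47050 among those that fell, so that these 4 rest on the full set of arrays.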

How the data were processed

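RNA of 9 samples was hybridised to Affymetrix ATH1 arrays. Per the labels, total RNA was labelled with biotin. The deposited intensities are MAS5 signals that the authors scaled to a common trimmed mean, and MAS5 and GCOS are named in the submitters' processing notes. No detection calls were used. Of 22810 probe sets, 64 controls were left out. Signals were raised to a floor of 1.03 (the 10th percentile) and taken as log2. A probe set was tested if a genotype's mean reached the 40th percentile (18.6), which left 14173. limma 3.58.1 (R 4.3.3) was fitted to all 9 arrays with a trended prior, no covariate and 6 residual degrees of freedom, then adjusted by Benjamini-Hochberg, with a threshold of 0.05. Tables and plots were made with Python 3.11.15, pandas 2.3.3 and matplotlib 3.10.9. The fit was tested on simulated data. Precision is limited by the number of arrays.

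Genes were named where the platform annotation gave exactly 1 gene (13513 probe sets; 503 had several and 8730 none). Locus tags and gene order came from RefSeq's TAIR10.1 table. Named are called genes with a single name, with array values for those changed by at least 1 on the log2 scale and the 5 of smallest adjusted p in each direction; from each function list the called members or, with none, up to 2 of the smallest p; flowering and clock genes with a named probe set; and the 3 largest rises and falls without a name. The members and lists were chosen with earlier results of these data known. Promoters and motifs were not analysed here. The alternatives tried were other normalizations, floors, filters, variance settings, a replicate block, the 25S signal, and leaving out arrays.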

Additional observations from a re-analysis of the deposited data

Results flagged for a closer look

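4 control probe sets outside the comparison had a constans mean above the highest wild-type array. The 25S ribosomal RNA control averaged 762 in the constans mutant (56.5, 1152 and 1079), against 22.6, 108 and 418 in wild type. The 5S ribosomal RNA control averaged 235 (134, 360 and 209), against 121, 165 and 212 in wild type. The control U12639 averaged 3.88 (6.41, 0.544 and 4.69), against 1.28, 0.712 and 1.64 in wild type, all dim signals. The 3′ polyubiquitin control averaged 3563 (3353, 3770 and 3565), against 3278, 3038 and 3240 in wild type, the one of the 4 in which all 3 constans arrays lay above all wild-type arrays. Groups of 3 arrays are too small for a search for single deviating arrays.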

How the results depend on the processing

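Quantile normalization, no floor, a larger pseudocount, a filter at the 60th percentile, fitting only the 2 genotypes and the 25S covariate kept the total of 198, and the counts of 111 higher and 87 lower, within 1.5 times. The replicate block gave 234 calls (130 higher, 104 lower), 192 of them shared. The constans and wild-type arrays of the same number had correlated deviations of 0.171, -0.0384 and 0.227, so the numbers were not taken as pairs. With dim probe sets kept, 56 passed (23 higher, 33 lower). With single-gene probe sets alone 76 passed (44 and 32), with no trend 102 (51 and 51), with the 3 arrays of high 25S signal left out 37 (18 and 19), and with a change of at least 2-fold 63 (30 and 33). Median centring gave 72 higher and array weights 136 lower. Leaving out 1 array gave 94 to 226 calls, with 42 to 110 higher and 50 to 130 lower. The share of calls that were higher was 56.1%, but 41.1% with dim probe sets kept, 42.5% without constans 1, 42.9% without constans 3 and 47.4% with median centring. For single genes, 606 of the refitted values lost a call, 29 gained one, and none changed direction after being called. Called probe sets had no overlap between the 2 genotypes, so most of these refits could not change their direction. Apart from the smaller sets of arrays or probe sets, the cause was not tested.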
